A study of Mus musculus with 17 samples.

Results

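The genes described here are 10 markers of the thalamus and of the habenula, namely Tcf7l2, Gbx2, Lhx9, Prkcd, Rgs16, Tnnt1, Ramp3, Gpr151, Synpo2 and Ptpn3. They were taken from a list of such markers and matched by symbol, and they are 10 of the 41015 annotated genes counted in the series. RNA was taken from brain of mice on a C57BL/6 background, in 6 libraries from mice that carried a HAR1A transgene and 11 libraries from normal control mice without it. HAR1A is a human long noncoding RNA whose gene holds a stretch of sequence that changed rapidly in the human lineage. The sources used here do not give the part of the brain, the age, the sex, the promoter of the transgene, the number of founder lines or whether each library came from its own animal. The p-values therefore measure the spread between these libraries, which may in part be technical. HAR1A itself was not analysed here, and the genotype labels are taken as given.

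All 6 transgene libraries were sequenced on lane 4, together with 3 of the controls. The other controls were sequenced on lane 8 (6 libraries), on lane 2 (1 library) and on lane 6 of another flow cell (1 library). Between 17067407 and 22642441 counts were assigned per library. The brain label was met by the summed level of 6 general neuron genes, at 3805 to 5241 CPM (counts scaled to library size) in the transgene libraries and 3713 to 5800 CPM in the controls. Large differences between the groups ran through the whole table. Summed genes of hindbrain and cord had at most 0.422 CPM in transgene libraries and 18.3 to 273.9 CPM in controls, and summed genes of cortical projection neurons had 1156 to 2222 CPM in transgene libraries and 144 to 834 CPM in controls. Control 7 stood apart among the controls, with 34.9 CPM of summed cerebellar granule cell genes against a control median of 1497 CPM, and transgene 3 stood apart in the other direction with 323.9 CPM against a transgene median of 27.4 CPM.

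The thalamus relays sensory and motor signals to the cortex, and the habenula, which lies above it, sends signals from the forebrain to monoamine neurons of the midbrain. Both arise from the embryonic diencephalon, where the transcription factors Tcf7l2, Gbx2 and Lhx9 help to set the identity of their neurons. Prkcd, Rgs16, Tnnt1, Ramp3, Synpo2 and Ptpn3 are used as markers of adult thalamic nuclei, and Gpr151 as a marker of habenular neurons. In bulk tissue, fewer cells of a type and less RNA per cell cannot be told apart.

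Reads were counted per transcript, and the tables hold 40.2% to 43.4% of all reads counted in a closing row named ambiguous rather than in a transcript. Gbx2, Rgs16, Ramp3, Gpr151 and Ptpn3 had 1 transcript row each, with 1618, 9678, 5356, 468 and 28400 counts over the 17 libraries. Tcf7l2 had 13 rows, of which 4 held any of its 431 counts, and a single row, Tcf7l2-203, held 78.0% of them. Lhx9 had 335 counts in 3 of 5 rows, Prkcd 312 counts in 1 of 7 rows, Tnnt1 231 counts in 2 of 5 rows and Synpo2 634 counts in 3 of 4 rows. In the annotation used here, the exon bases that belonged to 1 deposited row alone were 13.4% for Tcf7l2, 25.6% for Lhx9, 4.73% for Tnnt1, 0.124% for Prkcd and 0% for Synpo2, against 100% for Ramp3, Gpr151 and Ptpn3. For Gbx2 and Rgs16 they were 67.7% and 89.9%, and 1 row of another gene lay on the exons of each. Reads that cross an exon junction can also single out a transcript, and the authors' annotation may differ. The values of Tcf7l2, Lhx9, Prkcd, Tnnt1 and Synpo2 come from the part of their reads that was assigned to a single transcript, which need not follow the sum over all transcripts. No level is compared between genes below.

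The promoters of Tcf7l2, Lhx9 and Ptpn3 are shown because Tcf7l2 and Lhx9 moved together from library to library, and because Ptpn3 gave the steadiest difference between the groups. Each window holds 250 bases before the start of a RefSeq transcript in lower case and the first 50 transcribed bases in capitals (RefSeq, GRCm38.p6, written 5′ to 3′ on the strand of the gene). They lie at chr19:55741560-55741859 on the plus strand (Tcf7l2), chr1:138842395-138842694 on the minus strand (Lhx9) and chr4:57301788-57302087 on the minus strand (Ptpn3). The window of Ptpn3 is at the start of its counted transcript, while those of Tcf7l2 and Lhx9 were not matched to the start of the row that held most of their counts (Tcf7l2-203, and Lhx9-202 with 94.3%).
Tcf7l2: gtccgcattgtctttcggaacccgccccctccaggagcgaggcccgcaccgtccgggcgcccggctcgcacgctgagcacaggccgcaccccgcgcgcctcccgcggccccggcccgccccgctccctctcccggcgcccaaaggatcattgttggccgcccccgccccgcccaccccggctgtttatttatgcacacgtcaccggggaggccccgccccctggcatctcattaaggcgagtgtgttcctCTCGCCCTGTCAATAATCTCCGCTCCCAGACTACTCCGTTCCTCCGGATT
Lhx9: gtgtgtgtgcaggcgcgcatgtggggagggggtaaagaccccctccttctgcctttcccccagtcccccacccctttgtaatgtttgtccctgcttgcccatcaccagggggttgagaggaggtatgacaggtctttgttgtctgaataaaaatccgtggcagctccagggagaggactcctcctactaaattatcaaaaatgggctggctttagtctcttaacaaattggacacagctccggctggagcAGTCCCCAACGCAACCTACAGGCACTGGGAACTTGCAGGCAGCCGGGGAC
Ptpn3: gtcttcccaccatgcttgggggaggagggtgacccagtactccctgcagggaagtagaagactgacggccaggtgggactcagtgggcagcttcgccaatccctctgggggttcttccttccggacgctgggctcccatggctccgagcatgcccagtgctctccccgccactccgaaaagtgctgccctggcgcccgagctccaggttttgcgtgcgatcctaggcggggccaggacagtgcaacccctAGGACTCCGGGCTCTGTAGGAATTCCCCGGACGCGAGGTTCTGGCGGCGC
Letter strings of 6 bases were searched on both strands: CTTTGA, the core of the motif bound by TCF and LEF factors such as Tcf7l2, and TAATTA, a core bound by many homeodomain factors, the class to which Gbx2 and Lhx9 belong. The strings do not overlap each other. Among 11 windows of 9 of the marker genes, CTTTGA was found in 1 window, of Prkcd, and TAATTA in 1 window, of Synpo2, and neither was found in the windows printed above. Of 32851 mouse promoter windows of the same length, 16.0% held CTTTGA and 5.29% held TAATTA.

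Over all 17 libraries, 3 of the 10 marker genes were higher in the transgene libraries, namely Ramp3, Gpr151 and Ptpn3, none was lower, and 7 did not pass the test. All 10 passed the filter on low counts. The test was edgeR's quasi-likelihood test, with p-values adjusted by the Benjamini-Hochberg method over all 19136 tested features and a threshold of 0.05, which called 47.4% of all features (23% higher and 24.4% lower). A count of 3 in 10 higher is near that background and says nothing particular about the marker genes. Their median log2 fold change was 0.48, beside -0.05 over all features. The values of 2 of the 10, Gpr151 and Ptpn3, did not overlap between the groups and lay above the controls. Of all features, 14.9% did not overlap, 9.46% above the controls and 5.4% below them.

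**Figure D1:**
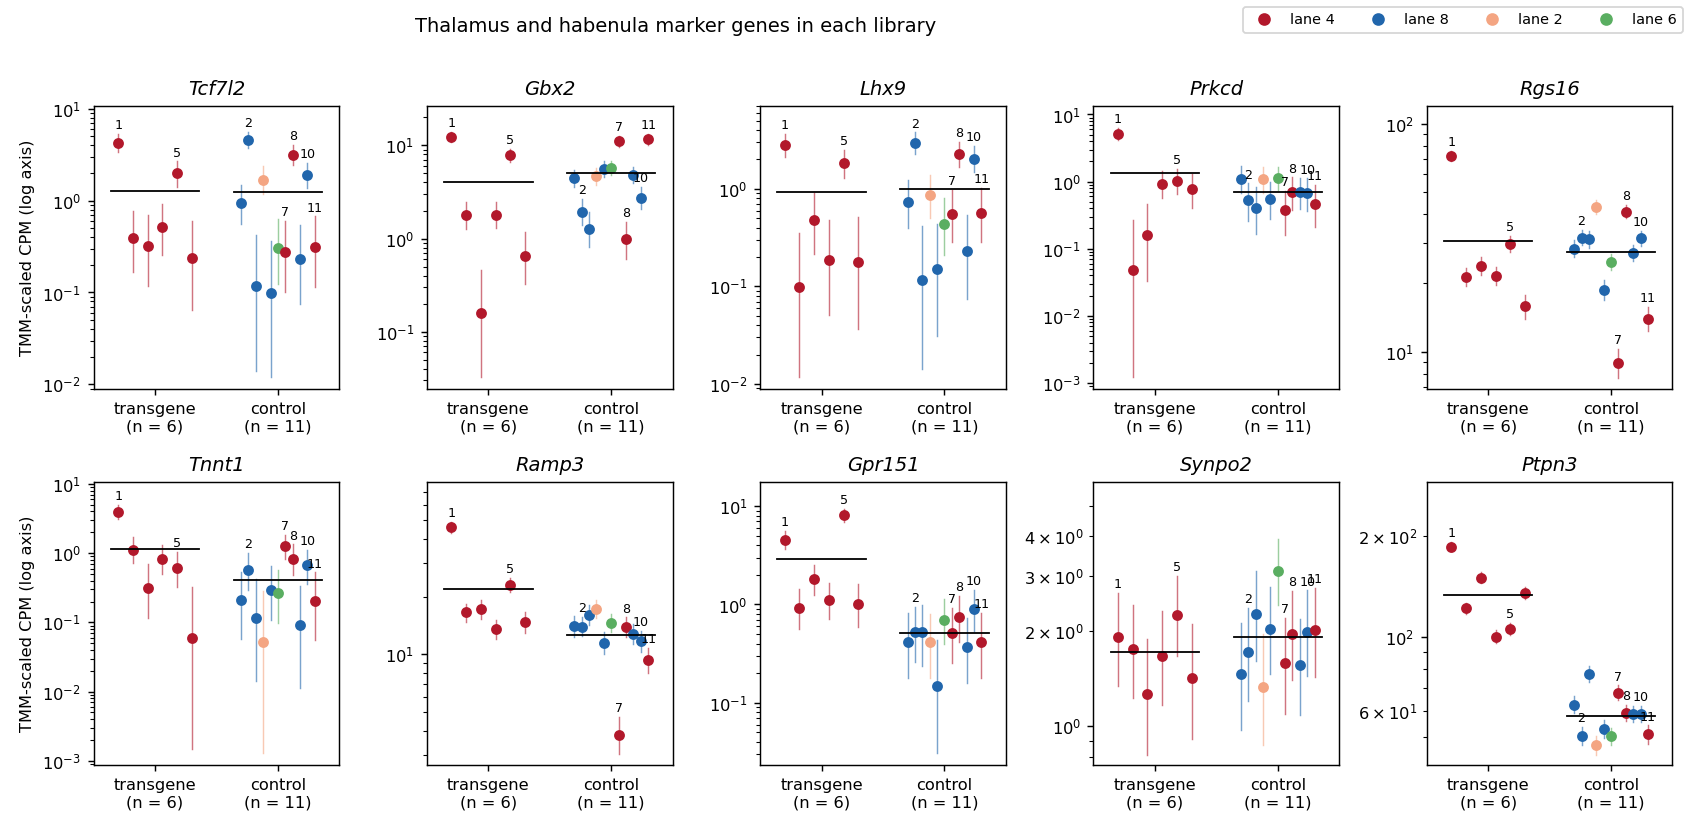
Level of each marker gene in every library (CPM with TMM scaling, log axis), with the 6 transgene libraries on the left of each panel and the 11 controls on the right. Points are libraries coloured by lane, vertical bars are exact 95% intervals for counting error, black lines are group means, and numbers mark libraries named in the text; for Ptpn3 the transgene libraries lie between 100.03 and 185.7 CPM, all above the controls.

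Among the transcription factor genes, Tcf7l2, an effector of Wnt signalling that shapes thalamic and habenular neurons, had 0.237, 0.450 and 4.25 CPM as lowest, median and highest level in the transgene libraries, against 0.0994, 0.310 and 4.62 CPM in the controls. Transgene 1 (4.25 CPM, 80 counts, exact 95% interval 3.37 to 5.30 CPM) and transgene 5 (1.97 CPM) stood above the other 4 transgene libraries, and controls 2, 8, 10 and 4 stood above the other 7 controls. The groups overlapped over nearly their whole range. Intervals of this kind cover counting error only. The mean was 1.28 ± 1.60 CPM in the transgene libraries (SD, n = 6) and 1.24 ± 1.48 CPM in the controls (n = 11), and the log2 fold change was 0.04 ± 0.77 (SE; edgeR adjusted p = 0.968), which turned to -0.81 ± 0.81 without transgene 1 (edgeR adjusted p = 0.445). The gene lies on mm10 chromosome 19 from 55741820 to 55933654, on the plus strand, and the noncoding gene Ppnr lies in one of its introns on the same strand.

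Lhx9, a LIM homeodomain gene of the developing diencephalon (chromosome 1, 138825186 to 138848577), had a lowest, median and highest level of 0.0975, 0.330 and 2.82 CPM in the transgene libraries, against 0.116, 0.568 and 2.95 CPM in the controls. Its high libraries were transgene 1 and transgene 5 on one side and controls 2, 8 and 10 on the other, all of them also high for Tcf7l2. The log2 fold change was -0.10 ± 0.70 (edgeR adjusted p = 0.924). Gbx2, a homeodomain gene needed for thalamic neurons and their axons (chromosome 1, 89927956 to 89931179), had 0.158, 1.81 and 12.3 CPM in the transgene libraries, against 0.983, 4.67 and 11.7 CPM in the controls. Transgene 1 (12.3 CPM) and transgene 5 (7.85 CPM) were again high and transgene 3 was low with 3 counts, but among the controls the high libraries were 11 and 7 (11.7 and 11.1 CPM), and control 8, high for Tcf7l2 and Lhx9, was the lowest. The log2 fold change of Gbx2 was -0.29 ± 0.63 (edgeR adjusted p = 0.738). The opposite-strand gene D130058E05Rik overlaps Gbx2. In the annotation used here, 67.7% of the exon bases of Gbx2 were shared with no other deposited row. Without a stated strand setting it is not known how reads on the shared bases were counted.

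Among the signalling genes, Ptpn3, a protein tyrosine phosphatase with a FERM and a PDZ domain (chromosome 4, 57190841 to 57301837), had the lowest fitted spread of the 10. Its lowest, median and highest level was 100.03, 128.3 and 185.7 CPM in the transgene libraries, against 47.4, 58.7 and 77.4 CPM in the controls. Every transgene library lay above every control, and the highest of the controls was control 3. Ptpn3 averaged 132.9 ± 31.8 CPM in transgene libraries (SD, n = 6) and 57.9 ± 8.94 CPM in controls (n = 11), and its log2 fold change was 1.20 ± 0.12 (SE; edgeR adjusted p = 5.2e-07). The opposite-strand noncoding gene Gm12536 overlaps Ptpn3, but in the annotation used here no deposited row of another gene lay on its exons.

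Gpr151, an orphan G protein-coupled receptor of habenular neurons (chromosome 18, 42577881 to 42579652), had 0.927, 1.45 and 8.08 CPM as lowest, median and highest level in the transgene libraries, against 0.149, 0.512 and 0.902 CPM in the controls. Transgene 5 (172 counts) and transgene 1 (86 counts, 4.57 CPM) were the high libraries, while transgene 2 (0.927 CPM, 19 counts) lay just above control 10 (0.902 CPM, 19 counts), so the absence of overlap is within counting error there. Gpr151 averaged 2.92 ± 2.88 CPM in transgene libraries and 0.514 ± 0.205 CPM in controls, a log2 fold change of 2.49 ± 0.43 (edgeR adjusted p = 0.000106). Without transgene 1 and transgene 5 together, an alternative chosen after seeing the data, it was 1.26 ± 0.31 (edgeR adjusted p = 0.00335).

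Ramp3, a receptor activity-modifying protein that joins receptors of the calcitonin family (chromosome 11, 6658521 to 6677475), had 13.5, 16.8 and 45.8 CPM in the transgene libraries, against 3.81, 13.9 and 17.3 CPM in the controls. The groups overlapped: only transgene 1 and transgene 5 (23.0 CPM) lay above the highest control, and control 7 lay far below the other controls. Ramp3 averaged 21.8 ± 12.2 CPM in transgene libraries and 12.6 ± 3.65 CPM in controls, a log2 fold change of 0.79 ± 0.26 (edgeR adjusted p = 0.0194). The call rested on transgene 1, without which the log2 fold change was 0.46 (edgeR adjusted p = 0.11). The pseudogene Gm11978 overlaps Ramp3 on the opposite strand, but no deposited row of another gene lay on the exons of Ramp3.

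Rgs16, which speeds GTP hydrolysis by G protein alpha subunits (chromosome 1, 153740349 to 153745468), had 15.8, 22.6 and 72.3 CPM in the transgene libraries, against 8.88, 28.3 and 43.2 CPM in the controls. Transgene 1 lay above all controls and the other 5 transgene libraries lay within their range, and control 7 was the lowest library. The log2 fold change was 0.17 ± 0.32 (edgeR adjusted p = 0.689) and turned to -0.26 ± 0.28 without transgene 1 (edgeR adjusted p = 0.475). The antisense gene Gm28513 overlaps Rgs16. Prkcd, the delta isoform of protein kinase C (chromosome 14, 30595354 to 30626210), had 0.0488, 0.848 and 5.11 CPM in the transgene libraries, against 0.372, 0.665 and 1.14 CPM in the controls. Transgene 1 held 96 of the 155 counts of its group, and transgene 2 held 1. The log2 fold change of Prkcd was 0.93 ± 0.55 (edgeR adjusted p = 0.175), and without transgene 1 it was -0.22 ± 0.45 (edgeR adjusted p = 0.719).

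Of the cytoskeletal genes, Tnnt1, which encodes slow skeletal troponin T and is also a thalamic marker in mouse brain (chromosome 7, 4504570 to 4516382), had 0.0591, 0.723 and 3.99 CPM in the transgene libraries, against 0.0513, 0.263 and 1.26 CPM in the controls. Transgene 1 was the only library above the highest control, which was control 7, and transgene 6 held 1 count. The log2 fold change of Tnnt1 was 1.45 ± 0.62 and missed the threshold (edgeR adjusted p = 0.0613), and it was 0.54 ± 0.58 without transgene 1 (edgeR adjusted p = 0.478). Summed genes of skeletal muscle, another tissue that uses Tnnt1, had 10.5 to 16.5 CPM in transgene libraries and 1.97 to 6.35 CPM in controls; 2 of the 7 genes could be tested, Acta1 rose (log2 fold change 1.92 ± 0.22, edgeR adjusted p = 1.39e-06), Mylpf did not pass (-0.21 ± 0.33), and Tnnt3, named after its values were seen, was at 0 in all libraries. Most of the muscle sum was Acta1, with a mean of 13.2 of 13.7 CPM in transgene libraries and 3.50 of 4.19 CPM in controls. Transgene 1, the highest library for Tnnt1, had the lowest muscle sum of its group, at 10.5 CPM. The part of muscle in the level of Tnnt1 was not tested.

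Synpo2, an actin-binding protein of Z-discs and of smooth muscle (chromosome 3, 123076519 to 123236149), had 1.27, 1.71 and 2.26 CPM in the transgene libraries, against 1.33, 1.97 and 3.11 CPM in the controls. The groups overlapped almost fully, and the highest library was control 6. Its log2 fold change was -0.16 ± 0.18 (edgeR adjusted p = 0.496).

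The spread between libraries of a group differed widely among the marker genes. The biological coefficient of variation fitted by edgeR was 103% for Tcf7l2, 93.5% for Lhx9, 85.8% for Tnnt1, 85.2% for Gbx2, 74.0% for Prkcd and 57.6% for Gpr151, each at or above percentile 96 of the 19136 features. Rgs16 (43.7%, percentile 90.7) and Ramp3 (37.2%, percentile 84.8) came next, while Synpo2 (20.6%) and Ptpn3 (18.3%) lay near the median of all features, 20.3%. Transgene 1 was the highest transgene library for 8 of the 10 genes, and transgene 5 for the remaining 2, Gpr151 and Synpo2.

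The midbrain list was high in both of these libraries among their group, and the hypothalamic list in transgene 1 but not in transgene 5. The midbrain list summed to 55.6 CPM in transgene 1 and to 28.2 CPM in transgene 5, against 3.59 to 11.4 CPM in the other 4 transgene libraries, and 17.3 to 62.0 CPM in the controls, highest in control 2. Of 9 midbrain genes, none was at 0 in transgene 1, 1 was at 0 in transgene 5, and 5 were at 0 in transgene 2 and in transgene 6. Named after its values were seen, Slc6a3 gave 29.9 CPM of the midbrain sum of transgene 1, while its highest control level was 2.81 CPM. The highest transgene level of En1, 2.07 CPM in transgene 1, lay below its lowest control level, 4.20 CPM. Gata3 (5.58 CPM) and Tal1 (2.61 CPM), also named after their values were seen, lay within the control range in transgene 1. The hypothalamic list summed to 166.9 CPM in transgene 1 and to 135.3 CPM in transgene 4, against 5.86 to 17.6 CPM in the other 4 (17.6 CPM in transgene 5), and 160.5 CPM in control 7, against 5.18 to 43.8 CPM in the other controls; none of the 9 genes was at 0 in transgene 1 or transgene 4. The genes behind the high hypothalamic sums differed. In control 7 most of the sum came from Pomc (90.9 CPM) and Trh (66.9 CPM), and Pomc was at most 0.266 CPM in the transgene libraries. Avp, at 98.8 CPM in transgene 4, was at most 1.81 CPM in the controls. The part of the midbrain and hypothalamic lists in the levels of the thalamic and habenular genes was not tested.

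Without transgene 1 and transgene 5 together, an alternative chosen after seeing the data and so no independent evidence, Gbx2 was lower in the transgene libraries, with a log2 fold change of -2.12 ± 0.66 (edgeR adjusted p = 0.0165). The values then were -2.03 ± 0.83 for Lhx9 (edgeR adjusted p = 0.0598), -1.70 ± 0.93 for Tcf7l2 (edgeR adjusted p = 0.156) and 0.33 for Ramp3 (edgeR adjusted p = 0.29).

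Within lane 4, which holds both genotypes, 1 of the 10 genes was higher in the transgene libraries, Ptpn3, and none was lower (6 against 3 libraries, 19261 features, of which 25.6% were called, 13.6% higher and 12% lower). Ptpn3 had a log2 fold change of 1.14 ± 0.20 (edgeR adjusted p = 0.00208), and the 3 controls of that lane had 51.0 to 67.9 CPM, below all 6 transgene libraries. Gpr151 did not overlap either, with 0.413 to 0.737 CPM in these controls, but missed the threshold (log2 fold change 2.37 ± 0.81, edgeR adjusted p = 0.052). Ramp3 missed it too (1.26 ± 0.47, edgeR adjusted p = 0.0709). Its groups overlapped. Ptpn3 and Gpr151 lay above the controls of the lane, and these 2 of 10 genes stand beside 25.4% of all features without overlap, 14.7% above the controls and 10.6% below them. For the other 7 genes the log2 fold change lay between -0.96 ± 0.99 (Gbx2, edgeR adjusted p = 0.521) and 1.37 ± 1.04 (Prkcd, edgeR adjusted p = 0.375). The 2 comparisons share all 6 transgene libraries and 3 controls.

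Between controls alone, lane 8 (6 libraries) was set against lane 4 (3 libraries), and none of the 10 marker genes was called by edgeR, where 0% of 19384 features were called, 1543 had an unadjusted p under 0.05, and DESeq2 called 1 feature. The lanes overlapped for each of the 10 genes, beside 2.62% of all features without overlap (1.52% higher and 1.1% lower in lane 8). The largest differences among the marker genes were -1.20 ± 0.64 for Tnnt1, -1.16 ± 0.62 for Gbx2 and 0.57 ± 0.31 for Ramp3 (log2 fold change, lane 8 over lane 4, edgeR adjusted p = 0.581 each). Gbx2 had 1.28 to 5.62 CPM in the controls of lane 8 and 0.983 to 11.7 CPM in those of lane 4. Ptpn3 differed by 0.03 ± 0.13 (edgeR adjusted p = 0.943).

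**Figure D2:**
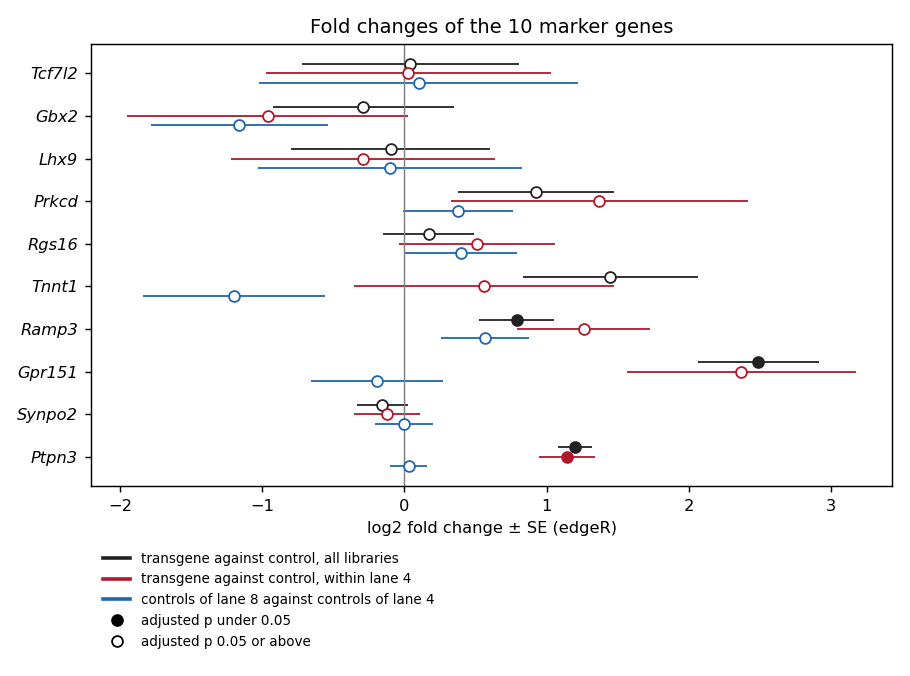
Log2 fold change with its standard error for each marker gene in the 3 comparisons (transgene over control in all libraries, transgene over control within lane 4, and controls of lane 8 over controls of lane 4). Filled points have an edgeR adjusted p under 0.05; Ptpn3 is filled in both comparisons of genotype, at 1.20 and 1.14, and lies at 0.03 between control lanes.

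How the marker genes varied together was measured for each of the 45 pairs within each group, on log2 CPM, with two-sided permutation tests adjusted over all 90 pairs. Libraries of a group share the strain and, in the transgene group, the lane. In the transgene libraries 44 of 45 pairs had a positive r, with a median of 0.692, but none passed the adjustment (10 pairs had an unadjusted exact permutation p under 0.05, and the smallest adjusted p was 0.125). Without the 2 libraries farthest from the median of the first gene of each pair, transgene 1 in 44 of the 45 pairs, 29 of 45 had a positive r and the median was 0.343, so the shared direction rests largely on those libraries. In the controls 23 of 45 pairs were positive, with a median r of 0.0448, and 2 pairs passed.

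Tcf7l2 and Lhx9 had r = 0.955 and Spearman's rho = 0.982 over the 11 controls (permutation p = 1e-05 each, the smallest that the permutations can give, adjusted p = 0.0009). Without controls 2 and 8, the libraries farthest from the median of Tcf7l2, r was 0.912 (permutation adjusted p = 0.0378), and over the 6 controls of lane 8 it was 0.99 (exact permutation p = 0.00278). In the 6 transgene libraries r was 0.913 with rho = 0.714 (exact permutation adjusted p = 0.186 and 0.422), and without transgene 1 and transgene 5 it was -0.232, so that relation rests on those libraries. The other pair, Rgs16 and Ramp3, had r = 0.891 (permutation adjusted p = 0.0148) and rho = 0.664 (adjusted p = 0.333) in the controls. Its r was 0.617 without controls 7 and 11 (adjusted p = 0.525) and 0.574 over the controls of lane 8 (exact permutation p = 0.244), so it rests on controls 7 and 11, the low libraries for both genes. Gbx2 ran the other way from Rgs16 in the controls (r = -0.767, rho = -0.818), which did not pass the adjustment (permutation adjusted p = 0.125 and 0.151).

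**Figure D3:**
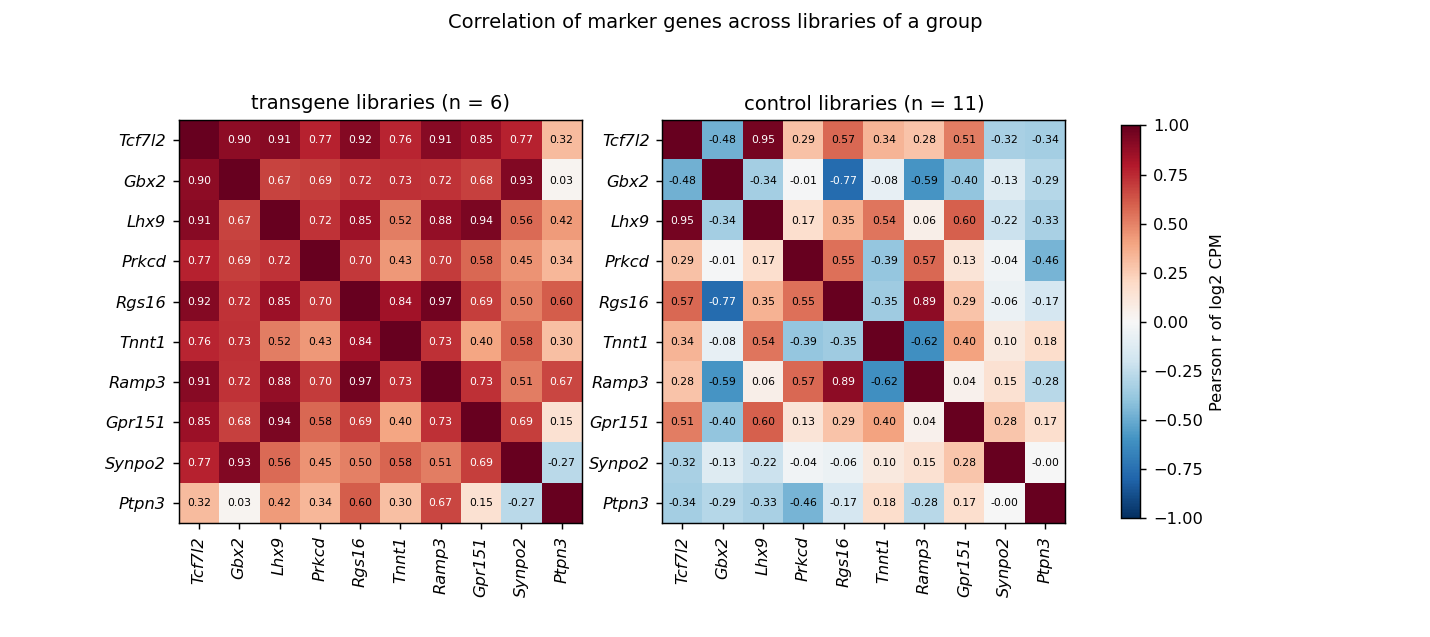
Pearson's r of log2 CPM for each pair of marker genes, over the 6 transgene libraries on the left and the 11 controls on the right, with the colour running from negative to positive r. In the transgene libraries 44 of 45 pairs are positive (29 of 45 without the 2 farthest libraries of each pair), and in the controls 23 of 45 are, with the highest r, 0.955, for Tcf7l2 and Lhx9.

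Other genes of the same regions did not follow a single direction. Of 17 tested genes known from the thalamus, 4 were higher in the transgene libraries, 7 were lower and 6 did not pass, with a median log2 fold change of -0.58. The calcium-binding protein gene Calb2 fell by 1.58 ± 0.16 on the log2 scale (edgeR adjusted p = 4.26e-07), the nuclear receptor gene Rora fell by 1.30 ± 0.24 (edgeR adjusted p = 0.000181), the phospholipase C gene Plcb4 fell by 1.37 ± 0.15 (edgeR adjusted p = 9.91e-07) and the vesicular glutamate transporter gene Slc17a6 fell by 1.30 ± 0.42 (edgeR adjusted p = 0.0156). Slc17a6, which most thalamic relay neurons use, had 33.3, 46.7 and 225.0 CPM as lowest, median and highest level in transgene libraries, against 53.3, 191.3 and 455.6 CPM in controls. Named after their values were seen, the 4 that rose were Lhx2 (2.53 ± 0.52, edgeR adjusted p = 0.000558), Kcnc2 (1.39 ± 0.20), Foxp2 (1.17 ± 0.18) and Nrn1 (0.60 ± 0.12), and Rora and Nrn1 did not pass within lane 4 (-0.79 ± 0.33 and 0.47 ± 0.19, edgeR adjusted p = 0.104 and 0.0956). Most of these genes are also expressed in other brain regions. Calb2, Rora and Plcb4 are strongly expressed in cerebellum, whose markers were lower too: all 6 granule cell genes (median log2 fold change -4.01) and 4 of 6 Purkinje cell genes (median -3.02) fell, and none rose. The granule cell list summed to 24.4 to 323.9 CPM in transgene libraries and 34.9 to 1868 CPM in controls. The Purkinje cell list summed to 681.1 to 1340 CPM in transgene libraries and 387.3 to 4185 CPM in controls. Most of the sum in transgene libraries was Pcp4 and Calb1, with means of 544.1 and 246.5 of 884.4 CPM. In controls they had 595.2 and 871.1 of 2976 CPM. Named after their values were seen, Car8, Pcp2, Ppp1r17 and Itpr1 had medians of 21.1, 0.279, 2.01 and 18.2 CPM in transgene libraries. Their control medians were 1275, 112.7, 216.8 and 38.7 CPM. Within lane 4, 4 of 6 granule cell genes were called lower (median -3.42) and no gene of the Purkinje list was called (median -2.21). Controls 7 and 11, both of lane 4, had the lowest Purkinje sums of the controls, 387.3 and 1364 CPM. The part of the cerebellar genes in the falls of the thalamic list was not tested.

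Of 13 tested genes known from the habenula, 7 were higher, 2 were lower and 4 did not pass, with a median log2 fold change of 1.13. The neuronal pentraxin gene Nptx2 rose by 3.12 ± 0.40 (edgeR adjusted p = 5.96e-06), Rprm by 2.76 ± 0.37 (edgeR adjusted p = 7.91e-06) and Nwd2 by 1.13 ± 0.18 (edgeR adjusted p = 4.21e-05), while the transcription factor gene Etv1 fell by 1.62 ± 0.35 (edgeR adjusted p = 0.000918) but did not pass within lane 4 (-0.95 ± 0.50, edgeR adjusted p = 0.195). Nptx2, Rprm and Etv1 are also expressed in cortex. In the list of cortical projection neurons, whose sums are given above, all 6 tested genes were called higher (median log2 fold change 3.18), whereas Etv1 fell. The part of the cortical genes in the changes of the habenular list was not tested. Named after their values were seen, the other 4 that rose were Tac2, Chrna5, Chrnb3 and Lrrc55, the other that fell was Irx2, and Pou4f1, Chrna3, Chrnb4 and Gng8 did not pass the test. Within lane 4, the counts were 3 higher, 6 lower and 8 not called for the thalamic list, and 6, 1 and 6 for the habenular list.

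Of 19 tested paralogs of the marker genes, 11 were higher, 3 were lower and 5 did not pass, with a median log2 fold change of 0.52. The protein kinase C genes Prkca (1.27 ± 0.13, edgeR adjusted p = 7.58e-07), Prkce (1.12 ± 0.12, edgeR adjusted p = 9.8e-07) and Prkcb (1.09 ± 0.15, edgeR adjusted p = 1.4e-05) rose, and none of the 3 overlapped between the groups. Of the 19 paralogs, 7 lay above the controls without overlap and 0 below them, beside 9.46% and 5.4% of all features. The groups overlapped for Prkcd, which had 312 counts in all, and its difference from these genes was not tested. Ptpn4, the closest relative of Ptpn3, had a log2 fold change of -0.17 ± 0.12 and did not pass (edgeR adjusted p = 0.248); the difference between the 2 genes was not tested.

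Of 10 tested partners and targets, 4 were higher, 2 were lower and 4 did not pass, with a median of 0.14. Ctnnb1, which encodes the beta-catenin that Tcf7l2 binds, rose by 0.20 ± 0.06 (edgeR adjusted p = 0.013), the Wnt target gene Axin2 rose by 0.34 ± 0.10 (edgeR adjusted p = 0.00734), the tropomyosin gene Tpm1, whose protein troponin T binds, rose by 0.49 ± 0.09 (edgeR adjusted p = 0.000142), and the Wnt inhibitor gene Apcdd1 did not pass (0.07 ± 0.21). Named after its values were seen, Nkd1, a Wnt target gene that inhibits the pathway, fell by 0.36 ± 0.14 (edgeR adjusted p = 0.0381). Within lane 4, Ctnnb1 (0.29 ± 0.11, edgeR adjusted p = 0.0718), Axin2 (0.37 ± 0.15, edgeR adjusted p = 0.0909) and Nkd1 (-0.53 ± 0.18, edgeR adjusted p = 0.0559) did not pass.

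**Figure D4:**
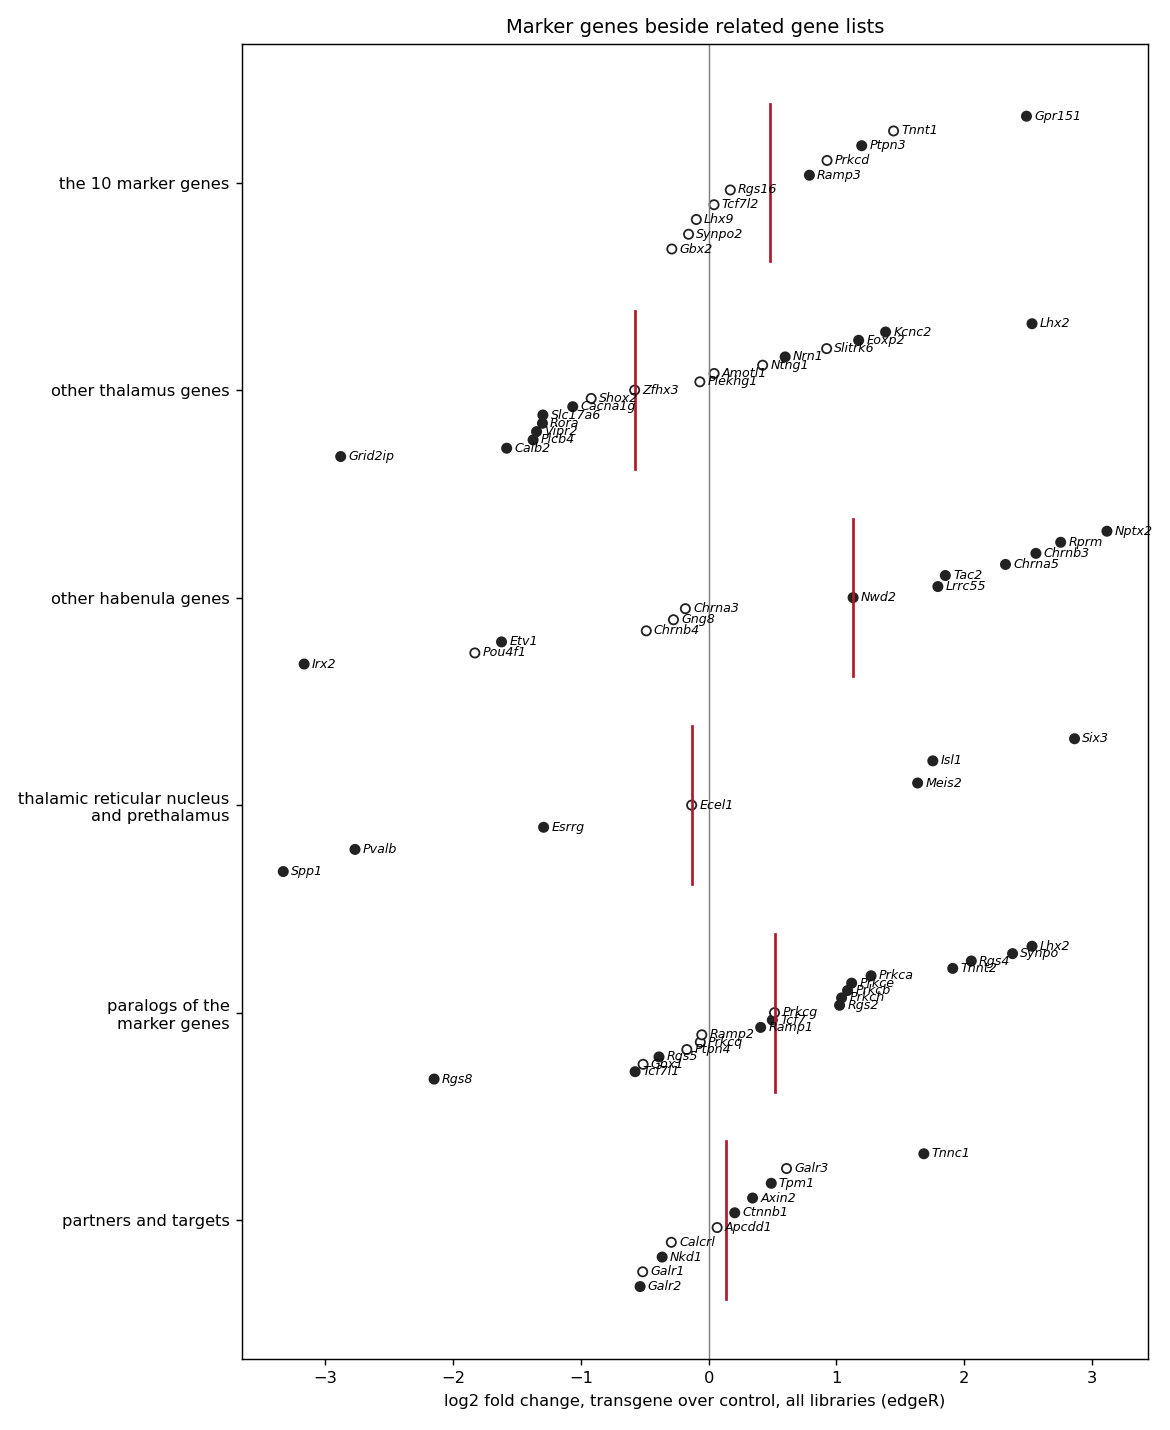
Log2 fold change of transgene over control in all libraries for the 10 marker genes and for 5 related lists. Each point is a gene, filled where the edgeR adjusted p is under 0.05, and red lines are list medians, at 0.48 for the marker genes, -0.58 for other thalamus genes and 1.13 for other habenula genes.

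The genes whose pattern across the 17 libraries was most like the mean of the 10 marker genes, after group means were removed, were Shox2 (r = 0.80), Irx1 (0.79), Chrna6 (0.78), Sox14 (0.75), Nhlrc2 (0.75), Tal1 (0.75), Lrtm2 (0.74), Manba (0.74), Chst10 (0.74) and Vav3 (0.73). The homeobox gene Shox2 was at 21.8 CPM in transgene 1 against a transgene median of 0.0824 CPM, and at 0.931 to 18.8 CPM in the controls. Of the 10 genes, 9 had their highest transgene level in transgene 1, and Sox14 had it in transgene 5. When only the 11 controls were used, none of these 10 was among the 10 most alike. These r values describe libraries that share the strain and, in the transgene group, the lane, and they carry no test.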

How the data were processed

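Brain RNA was sequenced in 6 transgene and 11 control libraries. The authors deposited a table of raw counts by transcript for each library, with reads placed on mm10 per the submitters' processing notes. The aligner, counter, annotation and strand setting were not given in the sources used here. Closing rows that name no transcript were left out: ambiguous reads made up 40.2% to 43.4% of all reads counted and reads outside any feature 5.29% to 11.1%. Transcript rows were matched to GENCODE M21 (64380 of 68517 rows) and summed per gene, and other rows stayed as features of their own, 45147 in all.

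Genes were tested with edgeR 4.0.16 in R 4.3.3 (TMM scaling, default expression filter, quasi-likelihood F test), with standard errors from the F statistic, and adjusted over all tested features. CPM values use TMM factors of all 17 libraries, and log2 CPM a prior count of 2. Correlations used exact permutation of 6 libraries or 100000 permutations of 11. The scripts were tested on simulated counts. Alternatives were DESeq2 1.42.0, limma 3.58.1 (voom), other scaling, filters, prior count, lane, the Xist level and libraries left out. The marker genes and related lists were chosen with earlier results of these data known, and 2 genes of these lists are not reported here. All 10 marker genes, up to 4 genes of each related list and 2 of each cell type list by mean level, and the 10 most alike protein-coding genes were to be named, and other genes are given as named after their values were seen.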

Additional observations from a re-analysis of the deposited data

Results flagged for a closer look

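Libraries far from the others of their group, by Dixon's criterion at 95% on the CPM scale, were sought among the 6 transgene libraries and among the 6 controls of lane 8. The series examined were the 10 marker genes and the 16 summed cell type lists in both groups, 52 in all. On the CPM scale 9 passed, and on the log2 scale 3 did. Chance passes about 1 in 20 only where values follow a normal distribution, which was not checked. Transgene 1 stood apart for 4 marker genes: Prkcd (5.11 CPM, next library 1.03 CPM), Rgs16 (72.3 CPM, next 29.7 CPM), Tnnt1 (3.99 CPM, next 1.12 CPM) and Ramp3 (45.8 CPM, next 23.0 CPM). None of these 4 passed on the log2 scale. Control 5 was low for Rgs16, at 18.7 CPM, with the next control of lane 8 at 27.0 CPM, and this passed on both scales. Among the summed lists, transgene 3 was high for cerebellar granule cells (323.9 CPM, next 35.95 CPM) and Purkinje cells (1340 CPM, next 893 CPM), control 1 was high for hypothalamus (17.2 CPM, next 9.66 CPM), and control 5 was high for smooth muscle and pericytes (307.5 CPM, next 253.4 CPM). Of these list sums, that of granule cells also passed on the log2 scale and the others did not. The remaining pass on the log2 scale, not seen on the CPM scale, was the choroid plexus sum. It was low in control 3 at 59.1 CPM, with the next control of lane 8 at 1588 CPM. For the comparison over all libraries, the marker genes are given with and without transgene 1 where that changed a call or a direction. Within lane 4, leaving out 1 library at a time gave log2 fold changes of both signs for Tcf7l2, Lhx9 and Tnnt1. They ran from -0.85 to 2.09, from -1.01 to 0.71 and from -0.38 to 1.12, and none was called.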

How the results depend on the processing

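Over all libraries, Ptpn3 and Gpr151 were called in all 27 alternatives, with log2 fold changes of 1.09 to 1.30 and 1.26 to 2.70. Ramp3 was called in 25 of 27, the exceptions being without transgene 1 and without transgene 1 and transgene 5 together, and Tnnt1 was called in 6 of 27, among them without control 7 and transgene 3 together (1.98, edgeR adjusted p = 0.0124). With lane as a factor Gpr151 had 2.39 (edgeR adjusted p = 0.0216), and the calls over all features numbered 5887 against 9078. With no expression filter 27.8% of 36207 features were called. Scaling by library size moved the median of all features to -0.16 and the share of calls that were higher to 35.6%, against 48.6%. Leaving out 1 library gave 2 to 4 marker genes higher and 0 lower over all libraries, 1 to 2 higher within lane 4 (2 without transgene 2, 4 or 6 or control 8) and 0 between control lanes, where leaving out control 8 gave 88 calls over all features. Of all features, these fits called 42% to 50.2% in either direction over all libraries and 18.6% to 24% within lane 4. Within lane 4, Ptpn3 was called in all 18 alternatives and Gpr151 in 5 of 18. The marker genes called higher there numbered 3 with DESeq2, 3 with the Xist level as a covariate and 2 with no expression filter, against 1. The share of all features called in either direction by these fits was 29.1%, 17.7% and 13.3%, against 25.6%. Without transgene 1 and transgene 5 together, an alternative added after the data were seen, 1 marker gene was lower over all libraries and 2 were lower within lane 4, namely Gbx2 (-2.83, edgeR adjusted p = 0.0432) and Lhx9 (-2.26, edgeR adjusted p = 0.0469). That alternative called 41.7% of all features in either direction over all libraries and 21% within lane 4. With lane as a factor, 1 other habenula gene was lower, against 2. Called pairs in the controls numbered 1 without the 2 libraries farthest from the median, against 2, and 0 of the 10 most alike genes were shared when only the controls were used. The cause of these changes was not tested. No result changed sign while called. No paired analysis was possible because the labels do not say that any number in them pairs libraries, and the replicate numbers used here follow the order of deposition. Depth limits Tnnt1, Prkcd, Lhx9, Tcf7l2 and Gpr151, each with fewer than 10 counts in several libraries.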

Other observations

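Genes of the thalamic reticular nucleus and prethalamus, the inhibitory neighbours of the thalamus, split by gene. Of 7 tested, 3 were higher in the transgene libraries, 3 were lower and 1 did not pass, with a median log2 fold change of -0.13 (-0.88 within lane 4). The parvalbumin gene Pvalb fell by 2.77 ± 0.28 (edgeR adjusted p = 5.2e-07), with 3.55 to 16.9 CPM in transgene libraries and 37.4 to 72.5 CPM in controls, and the nuclear receptor gene Esrrg fell by 1.29 ± 0.19 (edgeR adjusted p = 2.06e-05). The osteopontin gene Spp1 fell by 3.33 ± 0.42 (edgeR adjusted p = 4.05e-06), with 0.0591 to 0.488 CPM in transgene libraries and 0.815 to 8.88 CPM in controls, and Ecel1 did not pass (-0.13 ± 0.47). The 3 that rose, named after their values were seen, were Six3, Isl1 and Meis2. Pvalb is also expressed in cerebellum.

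Counts of single transcripts, with no test, were as follows. Tcf7l2-203 had 111 counts in transgene libraries and 225 in controls, and Tcf7l2-213 had 31 and 37. Lhx9-202 had 97 counts in transgene libraries and 219 in controls.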
